A study of Mus musculus with 12 samples.

Results

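Macrophages recycle most of the iron that a mammal uses each day, and the genes described here encode the proteins that bring iron into the macrophage, store it, pass it back to the plasma and keep it from bacteria. A list of 10 genes was taken: Tfrc, Steap3, Slc11a1, Slc11a2 and Steap4 for import, Fth1 and Ftl1 for storage, Slc40a1 and Cp for export, and Lcn2 for sequestration. Membership rests on function, with no measured value in the rule, but the list was chosen with earlier results of these data known. Counts of its genes are therefore not those of a list drawn up blind to the data. Of the 10 genes, 9 were measured, by 26 probe sets that carry the symbol of 1 gene (a probe set is a group of short probes that reports on one transcript), among 18193 genes and 34945 such probe sets in all. Ftl1, the light chain of ferritin, is represented by 3 probe sets, each of which is also annotated to another symbol, so it is given no value. The brightest probe set of a gene, by its mean over all arrays, stands for it, and its other probe sets are described beside it.

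Transferrin-bound iron enters cells through the transferrin receptor, is reduced in the endosome and leaves it through a divalent metal transporter; iron in excess is held in ferritin, and ferroportin is the known exporter of iron from the cell. During infection the body lowers the iron that microbes can reach, and macrophages take part by holding iron back and by releasing lipocalin 2, which binds the siderophores with which bacteria collect iron. Lipopolysaccharide (LPS), a component of the outer membrane of Gram-negative bacteria, is a standard way to set off this inflammatory state in culture.

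The cells were bone marrow-derived macrophages (BMDMs) of female c57bl6 mice, grown for 7 days in M-CSF and either left unstimulated or exposed to LPS for 4 h. The control genotype was Trspfl/fl-LysM-Cre-/-, in which Trsp, the gene of the selenocysteine tRNA, is floxed but intact. The other was Trspfl/fl-LysM-Cre+/- (ΔTrspM), in which Cre driven by the lysozyme M promoter, active in cells of the myeloid lineage, removes Trsp and with it the means to make selenoproteins. There were 3 arrays in each of the 4 groups, 12 in all, hybridized to Affymetrix mouse GeneChips. The replicates are not said to come from separate mice, and p-values therefore measure only how far these samples varied, some of which may be technical.

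The mean deposited signal of an array ran from 199.7 to 861, and ΔTrspM LPS replicate 2 was the dimmest, with 47.7% of its probe sets under a signal of 16 against 16.1% to 28.8% elsewhere. Quantile normalization was therefore applied, 16 was added, and log2 was taken; unless said otherwise a value below is on this log2(signal + 16) scale, on which the fold changes of dim genes are understated. Trsp is not analysed here, and nothing measured here checks the genotype labels. All 8 inflammatory genes taken as a check of LPS, among them Tnf and Il6, were higher after LPS in both genotypes. The 9 measured macrophage markers, such as Csf1r and Adgre1, averaged 12.0 to 12.4 on every array.

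The 3 genes that rose most are shown with the 250 bases before their transcription start (RefSeq, GRCm38.p6; for Cp the most upstream of its listed starts), because these stretches belong to genes that moved together. Capitals mark every match, on either strand, to 6 motifs: NF-kappaB (by its 10-base consensus), C/EBP (TTGCNNAA), STAT (TTCNNNGAA), the hypoxia response element (ACGTG), the antioxidant response element (TGACNNNGC) and the TATA box (TATAAA). Windows of this kind were listed for 8 of the 10 genes. Where any of these had several listed starts, only the most upstream was searched, and it need not be the main start.
Lcn2 (chr2:32387740-32387989, minus strand): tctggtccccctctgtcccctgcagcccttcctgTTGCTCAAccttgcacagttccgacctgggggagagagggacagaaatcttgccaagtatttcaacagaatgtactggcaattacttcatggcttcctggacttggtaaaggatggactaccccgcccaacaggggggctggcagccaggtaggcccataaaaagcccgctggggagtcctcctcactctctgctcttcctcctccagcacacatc
Steap4 (chr5:7960222-7960471, plus strand): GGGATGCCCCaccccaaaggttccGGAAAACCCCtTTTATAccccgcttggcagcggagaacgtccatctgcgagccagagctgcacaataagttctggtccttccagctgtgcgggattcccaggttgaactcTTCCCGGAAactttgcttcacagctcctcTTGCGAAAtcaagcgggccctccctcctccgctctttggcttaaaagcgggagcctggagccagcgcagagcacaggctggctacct
Cp (chr3:19956804-19957053, plus strand): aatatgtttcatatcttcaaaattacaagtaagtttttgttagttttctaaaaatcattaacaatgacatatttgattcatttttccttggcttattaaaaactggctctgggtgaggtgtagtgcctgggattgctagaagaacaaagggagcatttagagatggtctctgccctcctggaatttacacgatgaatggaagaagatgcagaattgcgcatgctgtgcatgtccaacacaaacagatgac
The Steap4 window held 2 matches to NF-kappaB, from 250 to 241 and from 226 to 217 bases before the start, with 1 TATA match at 215 to 210, 1 STAT match at 116 to 108 and 1 C/EBP match at 87 to 80. The Lcn2 window held 1 C/EBP match, from 216 to 209 bases before the start, and the Cp window held none of the 6. Over the 8 genes, NF-kappaB matches were found in 2 (Steap4 and Ftl1), C/EBP matches in 2 (Steap4 and Lcn2), STAT matches in 1 (Steap4), TATA matches in 2 (Steap4 and Fth1), and the hypoxia and antioxidant motifs in 0. Among all 32851 listed windows of this length, 7.25% held an NF-kappaB match, 9.56% a C/EBP match, 7.02% a STAT match, 16.6% the hypoxia motif, 10.2% the antioxidant motif and 12.4% a TATA match. These windows take in every listed start of a gene, so the shares are not per gene. A match is a description of the letters, not a site of binding.

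LPS changed most of the iron genes in control macrophages. Cp, Lcn2, Steap4 and Slc11a2 were higher and Slc40a1 and Tfrc were lower, 6 of the 9 measured genes at an adjusted p under 0.05 (limma, Benjamini-Hochberg adjustment over all genes), where 15.6% of all genes passed (7.09% higher and 8.54% lower). The same 6 genes had LPS arrays that did not overlap the unstimulated ones (34.1% of all genes did not). In ΔTrspM macrophages the same 4 genes, Cp, Lcn2, Steap4 and Slc11a2, were higher and 0 were lower, 4 of 9 against 15.8% of all genes (7.29% higher and 8.51% lower). Here the arrays of 6 genes did not overlap, those 4 with Tfrc and Fth1 (34.3% of all genes). The median size of the LPS response over the 9 genes, sign left aside, was 1.37 in control and 0.97 in ΔTrspM cells, against 0.40 and 0.40 over all genes. The calls above are from a fit that leaves the replicate number out. With that number as a block in the fit, 7 of the 9 genes passed in control and 6 in ΔTrspM cells, where 22.6% and 22.5% of all genes did. The block added Slc11a1, which was lower in both genotypes, and Tfrc, which was lower in ΔTrspM cells, and lost none. Between the genotypes, 0 of the 9 genes passed with either stimulus.

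**Figure D1:**
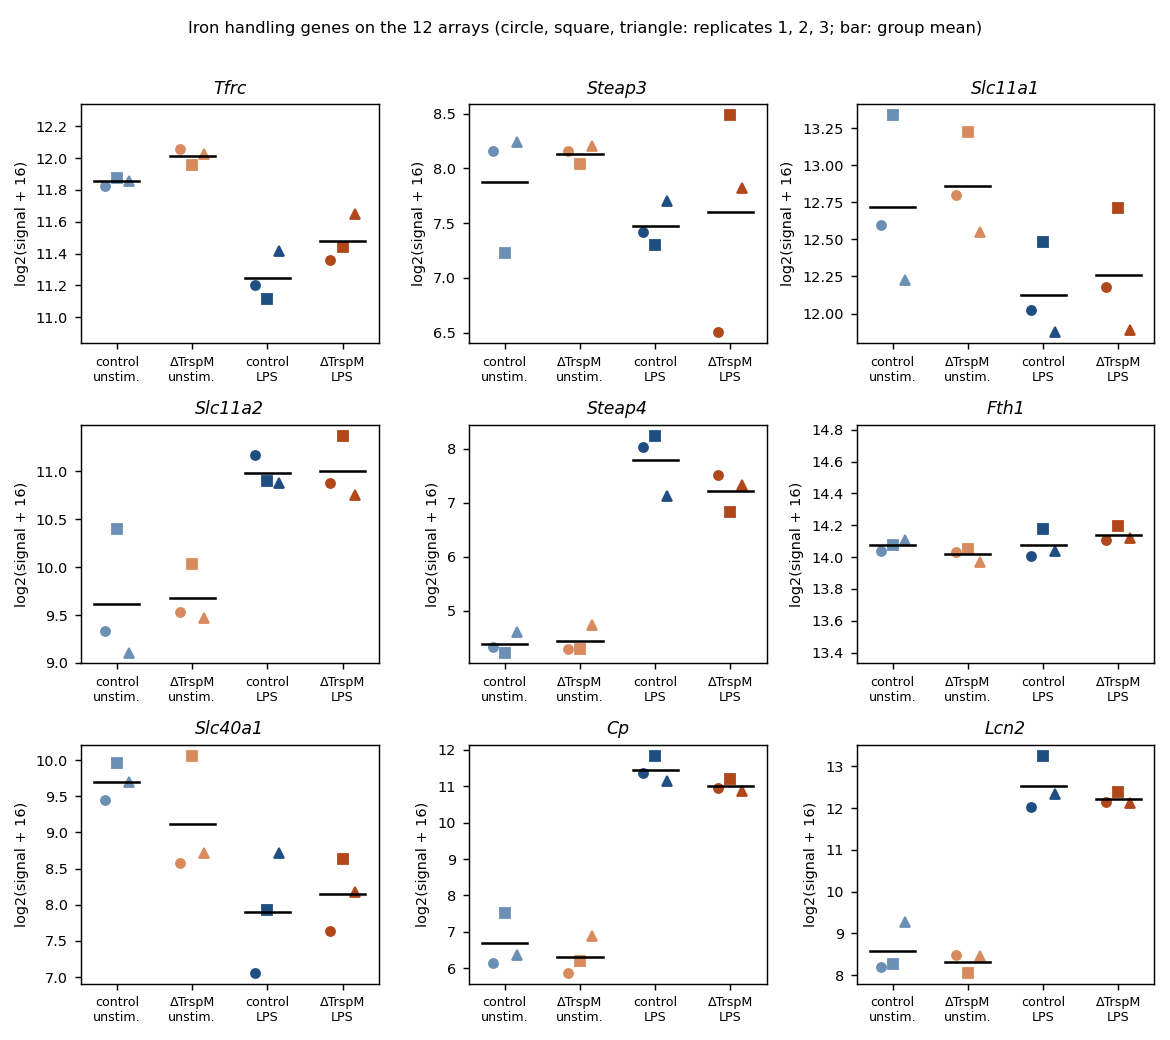
Log2(signal + 16) of each of the 9 measured iron handling genes (vertical axis) on the 12 arrays, by group (horizontal axis); each point is 1 array, its shape gives the replicate number, and bars are group means. In both genotypes Steap4, Cp and Lcn2 stood far above their unstimulated values after LPS; Fth1 lay between 13.97 and 14.20, at the top of the signals of every array, where quantile normalization leaves little room for a difference.

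Tfrc encodes the transferrin receptor, the main entry route of iron bound to transferrin. Its values were 11.83, 11.87 and 11.86 in unstimulated control cells and 11.20, 11.12 and 11.42 after LPS. In ΔTrspM cells they were 12.06, 11.96 and 12.03 unstimulated and 11.36, 11.44 and 11.65 after LPS. In each genotype all LPS arrays lay below all unstimulated arrays, by a small margin. In control cells the log2 fold change was -0.61 (standard error 0.17, adjusted p = 0.0286 by limma), a 1.52-fold fall. In ΔTrspM cells it was -0.53 (interval -0.90 to -0.17, adjusted p = 0.0501), just outside the threshold, and inside it (adjusted p = 0.0311) when the replicate number was added to the fit as a block. The call in control cells was lost with the arrays centred on their medians (-0.44, adjusted p = 0.337) or left unscaled (-0.73, adjusted p = 0.585), and when any one of the unstimulated control arrays or control LPS replicate 1 or 2 was left out (adjusted p = 0.0671 to 0.0904).

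The other 2 Tfrc probe sets had negative log2 fold changes of -0.41 and -0.44 in control cells and -1.05 and -1.18 in ΔTrspM cells, and none of these passed. Another 3 probe sets for the transferrin receptor serve the array maker as controls and were not tested; their differences were -0.50, -0.81 and -0.21 in control and -1.11, -1.14 and -0.84 in ΔTrspM cells. Dividing cells are rich in the transferrin receptor, so proliferation markers are given here. Of 10 markers 9 were measured, 0 passed with LPS in control cells and 1, Mcm2, was lower in ΔTrspM cells. Of all genes 8.54% and 8.51% were lower. Under the replicate block, 5 of the 9 were lower in control cells (Cdk1, Ccna2, Mcm2, Mcm5 and Rrm2). In ΔTrspM cells 6 were lower (the same 5 and Tyms), and 0 were higher in either. With the block 22.6% and 22.5% of all genes passed, in either direction. The mean of Mki67 was higher with LPS in control cells (11.2 without, 12.0 with), where the other markers were lower. In ΔTrspM cells it was 11.9 without and 11.6 with LPS. Without the block the median log2 fold change of the list was -0.76 and -1.11, against -0.05 and -0.03 for all genes. Their mean on an array was 9.65 to 11.6 without LPS and 9.37 to 10.8 with it in control cells, and 10.5 to 11.8 and 9.53 to 10.8 in ΔTrspM cells. In bulk RNA fewer cells of a type and less RNA per cell cannot be told apart, and the part of dividing cells in the Tfrc values was not tested.

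Slc11a2 encodes DMT1, the transporter through which ferrous iron leaves the endosome. Control values were 9.34, 10.40 and 9.11 unstimulated and 11.17, 10.90 and 10.88 after LPS. ΔTrspM values were 9.53, 10.03 and 9.47 unstimulated and 10.88, 11.38 and 10.75 after LPS. The groups did not overlap in either genotype, although replicate 2 was the highest unstimulated array in both. LPS raised it by 1.37 (log2 fold change, standard error 0.33, adjusted p = 0.0148 by limma) in control and 1.33 (adjusted p = 0.0180) in ΔTrspM cells, about 2.58-fold and 2.51-fold. All 4 probe sets had a positive difference in both genotypes, 2 of them passing in control and 3 in ΔTrspM cells. The call was less secure than those of Cp, Lcn2 and Steap4: in ΔTrspM cells the log2 fold change was 0.88 with the arrays centred on their medians (adjusted p = 0.0952) and 0.17 when they were left unscaled (adjusted p = 0.856), where the median of all genes was -0.73. It was also lost in control cells without unstimulated replicate 1 or 3 or LPS replicate 1 (1.11 to 1.28, adjusted p = 0.0523 to 0.0640), and in ΔTrspM cells without unstimulated replicate 1 or 3 or LPS replicate 2, the dim array (1.14 to 1.25, adjusted p = 0.0656 to 0.0687).

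Steap3, the endosomal ferrireductase that works with the transferrin receptor, had no response that passed. Its control values were 8.16, 7.23 and 8.24 without LPS and 7.42, 7.30 and 7.70 with it. The ΔTrspM values were 8.16, 8.04 and 8.20 without LPS and 6.50, 8.48 and 7.82 with it, where the LPS arrays were widely scattered. Its log2 fold change was -0.40 in control (interval -1.35 to 0.55, adjusted p = 0.602 by limma) and -0.53 in ΔTrspM cells (interval -1.48 to 0.42, adjusted p = 0.476). With the arrays left unscaled it was -1.69 in ΔTrspM cells (adjusted p = 0.0342), against the median of -0.73 for all genes. The other 2 Steap3 probe sets had -1.10 and -1.07 in control and -1.0 and -0.39 in ΔTrspM cells, and none of these passed.

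Steap4 encodes a metalloreductase that reduces iron and copper. Its deposited signals of 4.7, 2.2 and 9.2 in unstimulated control cells and 3.2, 2.4 and 15.8 in unstimulated ΔTrspM cells were very low. After LPS they were 285.9, 173.1 and 130.3 in control and 89.4, 22.9 and 135 in ΔTrspM cells. On the log2 scale all unstimulated arrays lay between 4.22 and 4.74, next to the lowest possible value of 4, and all LPS arrays between 6.83 and 8.25. The log2 fold change was 3.42 in control cells (standard error 0.30, adjusted p = 3.69e-05 by limma) and 2.78 in ΔTrspM cells (adjusted p = 0.000159). Because the unstimulated signal was so low, these sizes depend on the amount added before taking log2, and with 1 in place of 16 they were 5.23 and 4.44. The second probe set of Steap4 had 1.89 and 0.83 and passed in neither genotype.

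Slc11a1 encodes NRAMP1, which, where functional, pumps divalent metals out of the phagosome and so starves ingested bacteria. Whether the protein was functional in these cells was not tested. In control cells the transcript was 12.60, 13.34 and 12.23 unstimulated and 12.03, 12.48 and 11.87 after LPS. In ΔTrspM cells it was 12.80, 13.22 and 12.55 unstimulated and 12.18, 12.71 and 11.89 after LPS. Replicate 2 was highest and replicate 3 lowest in all 4 groups, and the groups overlapped. The log2 fold change was -0.59 in control (interval -1.31 to 0.12, adjusted p = 0.266 by limma) and -0.60 in ΔTrspM cells (interval -1.31 to 0.12, adjusted p = 0.263), and neither passed. With the replicate number as a block both did (adjusted p = 0.0239 and 0.0231), the value after LPS being lower in 3 of 3 same-numbered pairs of each genotype.

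Fth1 encodes the heavy chain of ferritin, which carries the ferroxidase activity of the iron store. It was 14.04, 14.08 and 14.10 in unstimulated control cells and 14.01, 14.18 and 14.04 after LPS. In ΔTrspM cells it was 14.03, 14.05 and 13.97 unstimulated and 14.10, 14.20 and 14.12 after LPS. In ΔTrspM cells the LPS arrays all lay above the unstimulated ones, by very little. The log2 fold change was 0.00015 in control (interval -0.33 to 0.33, adjusted p = 0.999736 by limma) and 0.12 in ΔTrspM cells (interval -0.21 to 0.45, adjusted p = 0.661). This probe set stood at the 99.9th percentile or above of the signals of every array, a position at which quantile normalization sets arrays to nearly the same value, so the narrow range says little about the transcript. The second Fth1 probe set had -0.25 in control and 0.20 in ΔTrspM cells, and neither passed.

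Slc40a1 encodes ferroportin, through which iron leaves the macrophage. In control cells it was 9.45, 9.96 and 9.70 unstimulated and 7.06, 7.93 and 8.72 after LPS. In ΔTrspM cells it was 8.58, 10.06 and 8.72 unstimulated and 7.63, 8.63 and 8.17 after LPS. The control groups did not overlap; in ΔTrspM cells unstimulated replicate 1 lay below LPS replicate 2. With LPS it was lower in control cells, at a log2 fold change of -1.80 (standard error 0.47, 95% interval -2.83 to -0.76, adjusted p = 0.0242 by limma), or 3.48-fold. In ΔTrspM cells the log2 fold change was -0.97 (interval -2.01 to 0.06, adjusted p = 0.203), and it was negative in 3 of 3 same-numbered pairs.

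The LPS response of Slc40a1 was not shown to differ between the genotypes: the interaction was 0.82 (interval -0.64 to 2.29, adjusted p = 0.999975 by limma). The call in control cells was lost when any one of the 3 unstimulated control arrays or control LPS replicate 1 or 2 was left out (log2 fold change -1.38 to -1.92, adjusted p = 0.0513 to 0.0860). In ΔTrspM cells the value was -0.50 without unstimulated replicate 2 (adjusted p = 0.534), while it passed with the arrays centred on their medians (-1.52, adjusted p = 0.0192) and when they were left unscaled (-2.22, adjusted p = 0.0101, with the median of all genes at -0.73). The second Slc40a1 probe set had -1.16 in control and -0.80 in ΔTrspM cells, and neither passed. The genes whose values followed it most closely over the 12 arrays were Dctd (root mean square difference 0.38), Sco2 (0.43) and Spire2 (0.46), against its own spread of 0.90.

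Cp encodes ceruloplasmin, a copper-containing ferroxidase that oxidizes iron as it leaves the cell. Unstimulated values were 6.14, 7.53 and 6.37 in control and 5.87, 6.20 and 6.89 in ΔTrspM cells. After LPS they were 11.36, 11.84 and 11.14 in control and 10.95, 11.20 and 10.87 in ΔTrspM cells. All LPS arrays lay above all unstimulated arrays. Its log2 fold change was 4.77 in control cells (standard error 0.37, adjusted p = 1.80e-05 by limma) and 4.69 in ΔTrspM cells (adjusted p = 2.36e-05), or 27.2-fold and 25.8-fold. Cp has 8 probe sets, of which 7 were higher in control and 6 in ΔTrspM cells when all probe sets were tested. The probe set that passed in neither genotype had a log2 fold change of 0.28 in control and 0.22 in ΔTrspM cells.

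Lcn2 encodes lipocalin 2, the siderophore-binding protein. Its deposited signal was 411, 381 and 742 in unstimulated control cells and 5873, 8375 and 6227 after LPS; in ΔTrspM cells it was 431, 239 and 466 without and 3499, 1452 and 4570 with LPS, the 1452 being on the dim array. After normalization the control values were 8.21, 8.27 and 9.29 unstimulated and 12.02, 13.25 and 12.34 after LPS. The ΔTrspM values were 8.47, 8.06 and 8.45 unstimulated and 12.14, 12.37 and 12.11 after LPS. Every LPS array lay well above every unstimulated array. The log2 fold change was 3.95 in control cells (standard error 0.35, 95% interval 3.18 to 4.72, adjusted p = 3.90e-05 by limma), a 15.4-fold rise, and 3.88 in ΔTrspM cells (interval 3.11 to 4.65, adjusted p = 5.61e-05), a 14.7-fold rise.

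Neutrophils also carry lipocalin 2 in their granules, so neutrophil markers are given beside it. Of 13 markers 10 were measured, and with LPS 1, Camp, was higher in each genotype, where 7.09% and 7.29% of all genes were higher. The log2 fold change of Camp was 1.47 in control and 1.67 in ΔTrspM cells. Camp, the granule peptide cathelicidin, lay at 7.95 to 8.22 without and 9.04 to 9.93 with LPS in control cells, and at 6.99 to 8.73 and 8.84 to 10.3 in ΔTrspM cells, so its groups did not overlap either. With the replicate block S100a8 also passed in ΔTrspM cells, where 2 of the 10 were then higher (22.5% of all genes passed, in either direction). Ltf, the granule protein lactoferrin, had 0.63 and 0.52 (adjusted p = 0.511 and 0.599 by limma). Without the block the median log2 fold change of the list was 0.56 in control and 0.78 in ΔTrspM cells. The medians of all genes were -0.05 and -0.03. The mean of the list on an array was 8.35 to 9.16 without LPS and 8.56 to 9.94 with it in control cells, and 7.93 to 8.98 and 8.64 to 9.93 in ΔTrspM cells. The part of such cells in the Lcn2 values was not tested. The genes whose values followed those of Lcn2 most closely over the 12 arrays, by the root mean square difference of values centred on each gene's mean, were Nxpe3 (0.19), Il1bos (0.35) and BC018473 (0.38), against a spread of 2.00 for Lcn2 about its own mean.

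**Figure D2:**
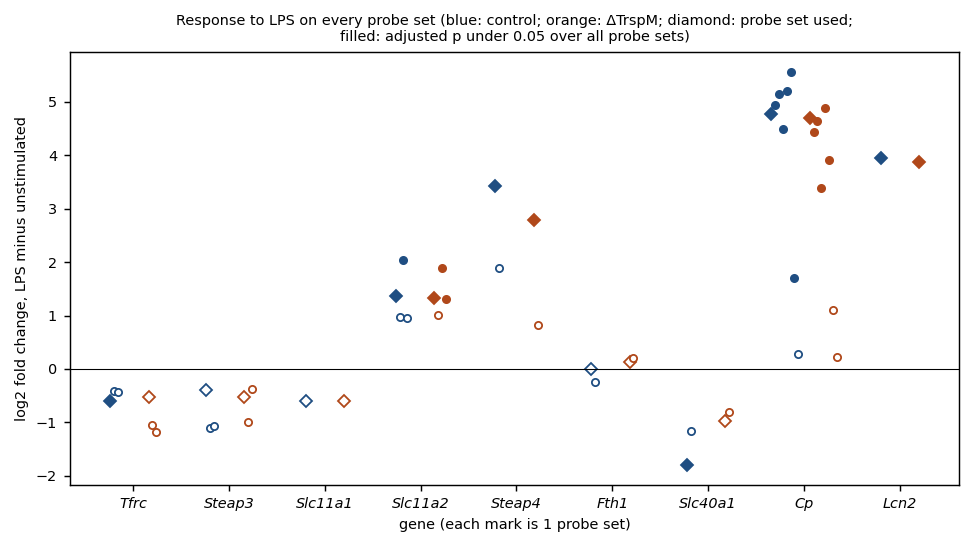
Log2 fold change with LPS (vertical axis) of each of the 26 probe sets, by gene (horizontal axis), in control (blue) and ΔTrspM (orange) cells; diamonds mark the probe set used for the gene, and filled marks had an adjusted p under 0.05 over all probe sets. All probe sets of Cp, Slc11a2 and Steap4 lie above 0 and all of Tfrc, Steap3 and Slc40a1 below it in both genotypes, with few of the latter filled.

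The comparison of the genotypes asked whether the loss of selenoproteins went with another level of the iron genes. In unstimulated cells 0 of the 9 genes differed by limma (0 of all genes, or 0%, passed), 0 had an unadjusted p under 0.05 (2.39% of all genes had), and 0 passed by the methods' t-test. The differences, ΔTrspM minus control, were positive for 5 genes and negative for 4, and the largest in size was that of Slc40a1, -0.58 (interval -1.62 to 0.45, adjusted p = 0.999855). Without unstimulated ΔTrspM replicate 2 it was -1.05. Tfrc was the only one of the 9 whose unstimulated groups did not overlap (7.32% of all genes did not), with all 3 ΔTrspM arrays above the control arrays and a difference of 0.16 (interval -0.20 to 0.52). The other 2 Tfrc probe sets had differences of -0.15 and 0.04, and neither passed. The differences of Cp (-0.36, interval -1.18 to 0.46), Lcn2 (-0.26, interval -1.03 to 0.51), Steap4 (0.06, interval -0.61 to 0.72) and Fth1 (-0.06, interval -0.39 to 0.28) were within the spread between arrays.

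After LPS 0 of the 9 genes differed between the genotypes by limma (0.011% of all genes did), 0 had an unadjusted p under 0.05 (5.78% of all genes had), and 0 passed by the methods' t-test. The groups overlapped for each of them (9.14% of all genes did not). The largest difference was that of Steap4, with -0.58 (interval -1.24 to 0.08, unadjusted p = 0.0797, adjusted p = 0.882 by limma), and without control LPS replicate 3 it was -0.92. Cp had -0.44 (interval -1.26 to 0.38) and was lower in ΔTrspM cells in 3 of 3 same-numbered pairs, though the groups overlapped. This was the smallest difference of its 8 probe sets, all of which were lower in ΔTrspM cells after LPS, with differences of -0.44 to -1.53, and 0 of which passed; they read the same arrays and are not independent. The second probe set of Steap4 had -0.81, and the other 2 of Tfrc -0.79 and -0.70, opposite in sign to the one used, and none passed. Lcn2 had -0.33 (interval -1.10 to 0.45), Slc40a1 0.24 (interval -0.79 to 1.28), Tfrc 0.24 (interval -0.13 to 0.60) and Fth1 0.07 (interval -0.27 to 0.40). Steap3, Slc11a1 and Slc11a2 had intervals that spanned 0 with either stimulus. Over both stimuli together 0 of 9 genes passed (0.022% of all genes did), and the interaction of genotype and LPS passed for 0 of 9 (0% of all genes), with 0 at an unadjusted p under 0.05 in each (4.88% and 3.05% of all genes). The interaction of Steap4 was -0.64 (interval -1.57 to 0.30). Over the 9 genes the intervals reached from -1.62 to 1.28, and differences between the genotypes of sizes within them could be present.

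**Figure D3:**
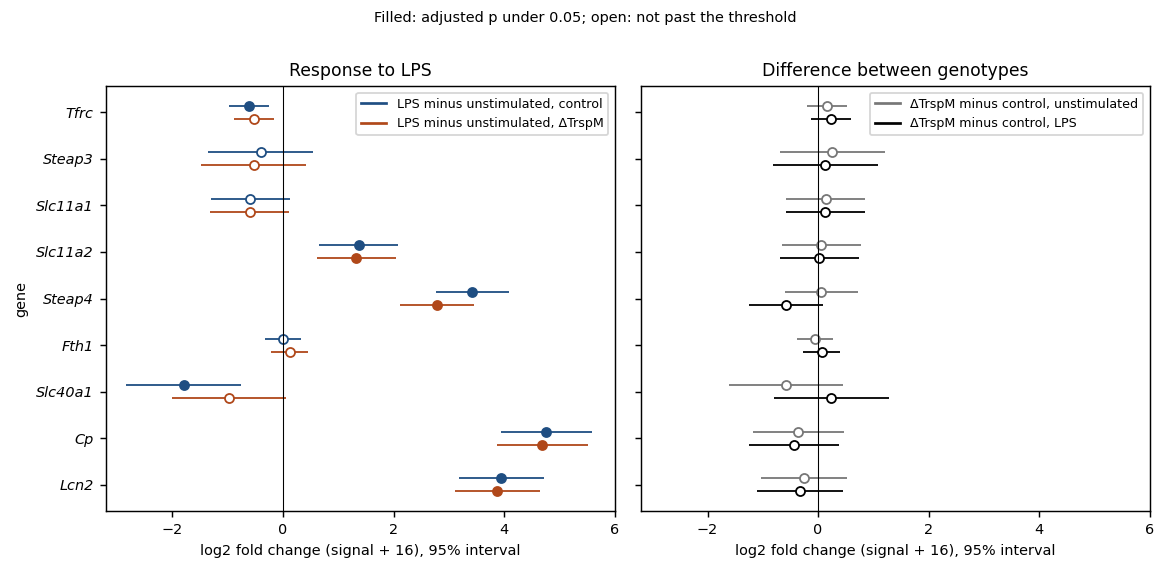
Log2 fold changes (horizontal axis, log2(signal + 16) scale) of the 9 genes (vertical axis) with their 95% intervals; at left LPS minus unstimulated in each genotype, at right ΔTrspM minus control with each stimulus, filled where the adjusted p from limma was under 0.05. The 18 intervals between genotypes all span 0, and those of Slc40a1 are the widest.

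Beyond the 9 genes, 6 lists of other iron genes held 69 genes, 64 of them measured. With LPS 5 were higher and 9 lower in control cells (21.9%, against 15.6% of all genes), and 4 were higher and 6 lower in ΔTrspM cells (15.6%, against 15.8%). Under the replicate block these counts were 7 higher and 16 lower in control cells (35.9%, against 22.6% of all genes) and 6 higher and 15 lower in ΔTrspM cells (32.8%, against 22.5%). Between the genotypes 0 passed with either stimulus, over both, or in the interaction, with the block or without it. The counts and calls of the single lists below are without the block unless said otherwise. They stand beside 7.09% of all genes higher and 8.54% lower in control cells. In ΔTrspM cells these shares were 7.29% and 8.51%.

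Uptake and trafficking was represented by 12 genes, of which 1 rose in each genotype and 0 fell. The riser was Slc39a14, or ZIP14, which carries iron not bound to transferrin, with a group mean of 10.6 ± 0.58 (SD, n = 3) unstimulated and 12.6 ± 0.47 after LPS in control cells, a log2 fold change of 2.09, and of 1.55 in ΔTrspM cells (adjusted p = 0.000935 and 0.00559 by limma). The median of the list was 0.40 in control and 0.05 in ΔTrspM cells. With the block 2 of its genes were higher in control cells and 1 in ΔTrspM cells. Among 6 genes of the iron regulatory proteins and ferritin turnover, Aco1, which encodes iron regulatory protein 1, was lower in ΔTrspM cells (-1.07, adjusted p = 0.0285), and 0 passed in control cells. In control cells Aco1 had -0.70 (adjusted p = 0.137 by limma), and its interaction did not pass (-0.37, adjusted p = 0.999975). Its ΔTrspM values after LPS were 11.38, 10.46 and 11.60, the 10.46 being on the dim array. With the block 1 gene of this list was higher in control cells, and 1 was higher and 1 lower in ΔTrspM cells. Ncoa4, the receptor that delivers ferritin for degradation, had -0.43 and -0.42, and neither passed.

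Of 10 genes of export and the hepcidin axis, 2 rose and 1 fell in control cells and 1 rose and 1 fell in ΔTrspM cells. Hamp encodes hepcidin, the peptide that causes ferroportin to be degraded, and rose by 0.99 in control and 1.39 in ΔTrspM cells (adjusted p = 0.0284 and 0.00507 by limma), from 6.39 ± 0.07 (SD, n = 3) to 7.37 ± 0.44 in control cells. Tmprss6, a protease that restrains hepcidin expression, rose in control cells (0.89, adjusted p = 0.0206), from a low 6.18 ± 0.44 to 7.06 ± 0.02. In ΔTrspM cells Tmprss6 had 0.26 and did not pass (adjusted p = 0.517 by limma). Id1, a target of bone morphogenetic protein signalling, was lower, with log2 fold changes of -2.68 in control and -2.45 in ΔTrspM cells (adjusted p = 0.00300 and 0.00522). With the block 2 genes of this list were higher and 3 lower in control cells, and 1 was higher and 3 lower in ΔTrspM cells. Hfe passed only with the block, lower in both genotypes (-1.18 and -1.05, adjusted p = 0.00464 and 0.00819 by limma).

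The 15 genes of haem uptake, export and breakdown moved both ways, with 2 higher and 4 lower in control cells and 2 higher and 3 lower in ΔTrspM cells. Hp encodes haptoglobin, which binds free haemoglobin, and rose from 6.21 ± 1.22 (SD, n = 3) to 10.1 ± 0.36 in control cells, with log2 fold changes of 3.90 and 3.83 (adjusted p = 0.000554 and 0.000704 by limma). Spic, a transcription factor of iron-recycling macrophages, rose by 2.70 and 2.76 (adjusted p = 0.00366 and 0.00346). Bach1, the haem-sensing repressor of the haem oxygenase gene, had -1.47 and -1.57 (adjusted p = 0.00222 and 0.00162), and Flvcr1, a haem exporter, -1.79 and -1.88 (adjusted p = 0.00160 and 0.00134). Cd163, the receptor for haptoglobin with haemoglobin, had -0.83 and -0.86 (adjusted p = 0.0385 and 0.0316 by limma). Cd163 was also lower in ΔTrspM than in control cells, by -0.69 unstimulated and -0.72 after LPS. Its genotype groups did not overlap with either stimulus (7.32% and 9.14% of all genes did not), and neither difference passed (adjusted p = 0.999855 and 0.716 by limma). Slc48a1, a haem transporter of the phagolysosome, fell with LPS in control cells (-0.81, adjusted p = 0.0304). Hmox1, haem oxygenase 1 itself, had -0.71 and -0.41 and passed in neither genotype (adjusted p = 0.126 and 0.404), although with the block it was lower in control cells (adjusted p = 0.0169). ΔTrspM minus control, Hmox1 had 0.30 unstimulated and 0.61 after LPS, and neither passed (adjusted p = 0.999855 and 0.862 by limma). Over both stimuli it had 0.45 (unadjusted p = 0.0479, adjusted p = 0.963 by limma). Of all genes 4.88% had an unadjusted p under 0.05 there. With the block 8 of the 15 were lower in control and 5 in ΔTrspM cells.

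Haem synthesis had 7 measured genes, of which 1, Alad, the enzyme that forms porphobilinogen, fell in control cells (-1.51, adjusted p = 0.0288 by limma) and 0 passed in ΔTrspM cells. Of 14 genes of mitochondrial iron and iron-sulfur clusters, 3 fell in control cells and 1 in ΔTrspM cells, and 0 rose. Isca1, an iron-sulfur cluster assembly protein, fell in both (-0.86 and -0.91, adjusted p = 0.00493 and 0.00401), and Glrx5 (-1.02) and Cisd1 (-0.94) fell in control cells. With the block Glrx5 and Cisd1 were lower in ΔTrspM cells as well, as were Nfs1 and Alad. Slc25a37 was higher there with the block (0.93, adjusted p = 0.0343 by limma). The mitochondrial list then had 3 genes lower and 0 higher in control cells, and 4 lower and 1 higher in ΔTrspM cells. Haem synthesis then had 2 lower in each genotype. The medians of the mitochondrial list were -0.35 and -0.31. Since red cells and their precursors are rich in haem genes, erythroid markers are given as well. Of 11 markers 8 were measured. After LPS 1 (Hba-a1) was lower in control and 2 (Hba-a1 and Ermap) in ΔTrspM cells, where 8.54% and 8.51% of all genes were lower. With the block Klf1 was higher in ΔTrspM cells too. The mean of the 8 markers on an array ran from 5.05 to 5.81. The erythroid enzyme gene Alas2 lay between 4.26 and 5.34 on all arrays, near the lowest value possible. The part of such cells was not tested. The other genes of the 6 lists with the smallest p (Tfr2, Steap2, Pcbp2, Fbxl5, Herc2, Smad7, Fech, Uros, Cpox and Cisd2) passed in none of the 6 contrasts without the block. With it, LPS raised Fbxl5 and lowered Smad7 in both genotypes, raised Steap2 and lowered Fech in control cells, and lowered Cpox in ΔTrspM cells.

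**Figure D4:**
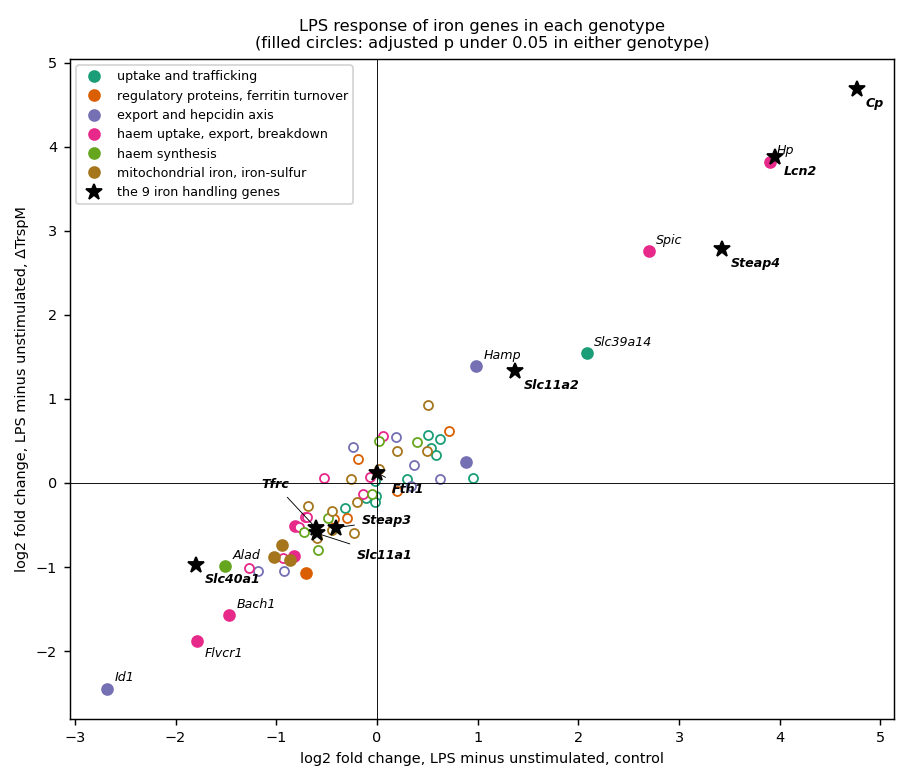
Log2 fold change with LPS in control (horizontal axis) and ΔTrspM (vertical axis) macrophages of the 64 other iron genes (circles, coloured by list, filled where the adjusted p was under 0.05 in either genotype) and of the 9 iron handling genes (stars). Cp, Lcn2, Steap4 and Slc11a2 lie at upper right with Hp, Spic, Slc39a14 and Hamp, and Slc40a1 at lower left with Alad, Bach1, Flvcr1 and Id1; the 2 axes rest on different arrays.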

How the data were processed

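RNA of control and ΔTrspM BMDMs, unstimulated or after 4 h of LPS, was hybridized to 12 arrays, and the labels give the genotype and stimulus of each. The deposited values are linear signal intensities of 45101 probe sets, which the authors had normalized with Expression Console; how probes were summarized was not stated in the sources read. The number of arrays limits the precision. Of the columns of sample values 0 were left unused.

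Control probe sets (64) were left out, the other 45037 were quantile-normalized, 16 was added and log2 was taken. Of these, 34945 carried 1 gene symbol, 932 several and 9160 none. The probe set with the highest mean was used for each gene. Limma 3.58.1 (R 4.3.3) was fitted to the 4 groups together without a block (8 residual degrees of freedom), with Benjamini-Hochberg adjustment over 18193 genes at 0.05, and was tested on simulated data. The contrasts were LPS minus unstimulated in each genotype, ΔTrspM minus control with each stimulus and over both, and the interaction. With 3 arrays on each side the smallest exact p is 0.1.

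After removal of group means, same-numbered arrays of the groups compared correlated at 0.126 to 0.442 in all 12 pairs, against a required 0.1, so the numbers were taken to pair the cultures; the labels do not say what they stand for. A fit with the number as a block is given where it changes a call of the 9 genes. It is also given where it changes a count of the iron, proliferation, neutrophil, erythroid or stromal lists. The other 6 same-numbered pairs, of groups that differ in both genotype and stimulus, correlated at 0.067 to 0.271.

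The members and lists were chosen with earlier results of these data known. All measured members are named, and up to 4 genes of each iron list with the smallest p in any contrast. Cd163, Slc48a1, Hmox1, Hfe, Slc25a37 and Nfs1 were added after their values were seen. For Slc40a1 and Lcn2 the 3 nearest genes are named. Alternatives were median centring, no scaling, a pseudocount of 1, the mean of a gene's probe sets, all probe sets, a filter on dim genes, a fit restricted to the groups of a contrast, trended and robust limma, the block, the methods' t-test, and leaving out each array or replicate 2 of every group. Promoter sequences were from RefSeq (GRCm38.p6).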

Additional observations from a re-analysis of the deposited data

Results flagged for a closer look

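For Fth1 the difference between the genotypes had opposite signs without and with LPS in every same-numbered pair: ΔTrspM was lower than control in 3 of 3 pairs of unstimulated cultures and higher in 3 of 3 pairs after LPS. The interaction was 0.12 on the log2 scale (standard error 0.21, 95% interval -0.35 to 0.59, adjusted p = 0.999975 by limma), and the arrays of the genotypes overlapped with either stimulus. The second Fth1 probe set did not have opposite signs: its differences were 0.018 unstimulated and 0.47 after LPS (interaction 0.45, adjusted p = 0.999992 over all probe sets), and none passed. With arrays centred on their medians the unstimulated difference was 0.013, and with no scaling the difference after LPS was -0.079.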

How the results depend on the processing

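The 10 LPS responses past the threshold kept their direction under all 228 alternatives run for them, and under 31 of these the value no longer passed; those of Cp, Lcn2 and Steap4 were never lost (Steap4 has no value with the filter on dim genes, which left 11627). In control cells 3 genes passed by the methods' t-test, and 3 to 6 when one array was left out, 3 without unstimulated replicate 1, unstimulated replicate 3 or LPS replicate 1. The replicate block took 7 genes past the threshold in control and 6 in ΔTrspM cells; beyond Slc11a1 and Tfrc it changed no other call of the 9 genes. With no scaling the median of all genes was -0.25 for LPS in control and -0.73 in ΔTrspM cells, and -0.60 for ΔTrspM minus control after LPS, so values with no scaling are to be read against these. With centring that of the interaction was -0.18. The following values not past the threshold changed sign. With arrays centred, ΔTrspM minus control was 0.013 for Fth1 unstimulated, and -0.19 for Tfrc and -0.089 for Slc40a1 after LPS. With no scaling it was -0.70 for Tfrc, -0.079 for Fth1 and -0.60 for Slc40a1 after LPS. With the mean of the probe sets, Fth1 had -0.12 with LPS in control cells and Tfrc -0.42 between genotypes after LPS. Without replicate 2 of every group, Fth1 had -0.049 with LPS in control cells and Cp 0.13 between unstimulated genotypes. Leaving out one array gave -0.051 to 0.034 for Fth1 with LPS in control cells and -0.97 to 0.019 for Steap3 with LPS in ΔTrspM cells. Between unstimulated genotypes it gave -0.65 to 0.064 for Cp, -0.45 to 0.092 for Lcn2 and -0.10 to 0.16 for Steap4, and after LPS -0.59 to 0.030 for Lcn2 and -0.18 to 0.65 for Slc40a1. The cause of these changes was not tested. Of the 520 alternatives for values not past the threshold, 490 kept sign and side, 10 passed and 20 changed sign.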

Other observations

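The 12 stromal markers had a median difference of 0.51 between ΔTrspM and control cells without LPS and 0.69 with it. The medians of all genes were 0.04 and 0.04. Of the 12 markers 0 passed between genotypes. With LPS 1, Pdgfrb, was higher in each genotype, where 7.09% and 7.29% of all genes were higher. With the replicate block 2 were higher in each, Pdgfra being added in control and Lum in ΔTrspM cells. The block took 22.6% and 22.5% of all genes past the threshold, in either direction. The mean of the 12 markers on an array ran from 6.06 to 8.76. Their part in the values of the iron genes was not tested.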
